A study of Mus musculus with 6 samples.

Results

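The genes of the mitochondrial respiratory chain were compared between thymic and thyroid epithelial cells of the mouse. Members were all array probes whose gene name in the scanner files marks a nuclear-encoded subunit of complexes I to IV or of the ATP synthase, plus the genes of cytochrome c (Cycs) and cytochrome c1 (Cyc1). The rule used names only and no measured value. It took 85 of the 27597 gene names and 120 of the 41174 probes on the array. Of the 85 names, 81 stand for subunits. The other 4 share the letters of a subunit but name other proteins: Ndufaf1 and Ndufa12l (now Ndufaf2) are assembly factors of complex I, Atp5s (now Dmac2l) is a factor associated with the ATP synthase, and Cox4nb (now Emc8) belongs to a membrane protein complex of the endoplasmic reticulum. These 4 are kept in the counts of members and described apart.

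RNA from sorted cells of the C57BL/6 strain had been measured on 6 single-colour Agilent arrays, 3 per group. The thymic samples (ThymusEC) held living cells of the thymic medulla that carried Epcam, an epithelial adhesion protein, bound the lectin UEA1 and lacked CD45, the common surface protein of blood cells. The thyroid samples (ThyroidEC) held living Epcam-positive, CD45-negative cells, with no lectin in the gate. Each thyroid sample pooled 20 thyroids, thymic samples 1 and 2 pooled 6 thymi each and thymic sample 3 pooled 2 thymi. The submitters call the replicates independent, and give no treatment or age for either group.

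The respiratory chain passes electrons from NADH (complex I) and succinate (complex II) through ubiquinone, complex III and cytochrome c to oxygen at complex IV, and the ATP synthase uses the proton gradient so built to make ATP. Most subunits are encoded in the nucleus and a few in mitochondrial DNA. The nuclear genes are transcribed in most cell types, and factors such as NRF1, GABPA, ERR alpha and YY1, with the coactivators PGC-1alpha and PGC-1beta, are known to drive many of them. Some complex IV subunits have tissue forms: Cox6a2, Cox7a1 and Cox8b are the forms of heart and skeletal muscle (Cox7a1 and Cox8b also of brown fat), and Cox6b2 and Cox8c are known from testis. Thyrocytes need hydrogen peroxide and energy for hormone synthesis, and medullary thymic cells are known for transcribing genes of many other tissues, by which T cells are made tolerant to them.

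Promoter windows, from 250 bases before to 50 after the annotated start, were taken from RefSeq (GRCm38.p6). Of the 81 subunit names, 66 had a window, with 71 windows in all; those without included Atp5a1, Cox4i1, Cox4i2, Cox6a2, Cox6c, Cox8c, Cyc1, Ndufa2, Ndufb9, Ndufs1, Sdhc, Uqcrb, Uqcrc2 and Uqcrq. Each window was searched on both strands for 5 letter strings: GCGCA followed after any 1 base by GCGC (NRF1), CCGGAAGT (ETS factors such as GABPA), AAGATGGCG (YY1), CAAGGTCA (ERR alpha) and TATAAA, a core promoter element, none of which contains another. The 4 windows below are shown because Cox8b and Ndufb8 were among the members with the largest differences, in opposite directions, Cox8a is the common counterpart of Cox8b, and Sdha held the NRF1 string 3 times. Capitals mark the strings found, on either strand, and each window is printed 5′ to 3′ on the strand of its gene. Cox8b lies at chr7:140900397-140900696, Cox8a at chr19:7217567-7217866, Sdha at chr13:74350191-74350490 and Ndufb8 at chr19:44555393-44555692, all on the minus strand.
Cox8b: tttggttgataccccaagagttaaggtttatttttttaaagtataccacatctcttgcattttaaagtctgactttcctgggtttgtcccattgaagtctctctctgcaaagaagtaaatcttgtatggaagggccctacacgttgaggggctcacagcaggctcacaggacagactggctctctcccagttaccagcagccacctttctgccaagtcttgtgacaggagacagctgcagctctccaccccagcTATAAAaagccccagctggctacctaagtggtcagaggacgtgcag
Cox8a: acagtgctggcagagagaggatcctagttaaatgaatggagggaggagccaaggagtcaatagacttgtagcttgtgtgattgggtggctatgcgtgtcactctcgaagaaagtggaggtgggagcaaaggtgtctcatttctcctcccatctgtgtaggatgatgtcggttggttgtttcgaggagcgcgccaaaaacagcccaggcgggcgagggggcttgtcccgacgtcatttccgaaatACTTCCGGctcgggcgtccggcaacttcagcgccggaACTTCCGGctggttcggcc
Sdha: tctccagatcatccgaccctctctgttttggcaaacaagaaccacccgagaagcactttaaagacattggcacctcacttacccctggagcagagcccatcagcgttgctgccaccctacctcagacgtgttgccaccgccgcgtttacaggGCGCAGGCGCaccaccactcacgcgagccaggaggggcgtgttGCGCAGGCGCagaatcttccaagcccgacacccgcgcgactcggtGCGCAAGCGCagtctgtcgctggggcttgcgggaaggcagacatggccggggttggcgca
Ndufb8: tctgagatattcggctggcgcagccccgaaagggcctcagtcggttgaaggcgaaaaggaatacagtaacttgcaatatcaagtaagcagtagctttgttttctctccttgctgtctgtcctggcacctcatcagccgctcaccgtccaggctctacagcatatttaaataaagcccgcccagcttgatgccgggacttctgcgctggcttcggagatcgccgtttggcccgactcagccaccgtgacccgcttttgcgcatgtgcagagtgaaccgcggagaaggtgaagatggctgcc
The Cox8b window held TATAAA and none of the other 4 strings, the Cox8a window held the ETS string 2 times on the strand opposite to the gene, and the Ndufb8 window held none of the 5. Over the subunits, 18 of 71 windows (25.4%) held the NRF1 string, against 4.60% of all 32851 windows of the same length. The YY1 string stood in 7 of 71 (9.86%, against 1.40%), the ERR alpha string in 4 (5.63%, against 1.56%), the ETS string in 5 (7.04%, against 3.89%) and TATAAA in 7 (9.86%, against 13.6%). Such a match is only a description of letters. Among the 15 windows of the subunits that passed the test under the 5 scalings of the whole array described below, 2 had the NRF1 string (Sdha and Ndufa8).

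The array measured each gene with probes of 60 bases. The first 30 bases of the probes behind the main results are printed in lower case, 5′ to 3′, with the mm8 positions that the scanner files give; the pairs of tissue forms are shown since a cross-reacting probe could not tell them apart, and the Ndufb8 and Cycs probes since probes of these genes differed in their values.
Cox8b, chr7:140750273-140750332: ctataaaaagagctccgcagcatgaagttg
Cox8a, chr19:7282281-7282340: tcatgttattcaattccagtcacctcttct
Cox6a2, chr7:127996794-127996853: agcaatcttcaaattggccttctgcacacc
Cox6a1, chr5:115606716-115606775: ggaccacgaaaaccctttggatgctaagct
Ndufb8 brighter probe, chr19:44603676-44606020: taccagcctgtgggtccgaagcagtaccct
Ndufb8 dimmer probe, chr19:44602039-44602098: ccgtggaataacggacaaagtagccacatt
Cycs brightest probe, chr6:50494842-50494901: aatgatcttcgctggaattaagaagaaggg
Cycs other probe, chr6:50494129-50494188: aagactaagttgtaaatcagaattgtcctt
Cycs other probe, overlapping it, chr6:50494109-50494168: aattgtccttaaatacccactcagaaacac
The whole probes of Cox8a and Cox8b matched in at most 19 of 60 letters without gaps, and those of Cox6a1 and Cox6a2 in at most 19. Over all 8 pairs of related subunits compared here, the longest shared run was 8 letters and at most 23 letters matched. A run of 20 or more letters was shared with a probe of another name for 2 members, Atp5b and Uqcrb.

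Levels are given as log2 of the processed signal minus the 75th percentile of the array, so that 0 is a probe at that percentile and a difference of 1 is 2-fold. Signals at the 75th percentile lay between 475 and 805, no spot was saturated, and 78.4 to 81.0% of probes on the thymic arrays and 65.3 to 72.7% on the thyroid arrays were well above background. Of the member names, 83 passed the background flag on each of the 6 arrays and were tested; Cox4i2, the hypoxia and lung form of subunit 4, was above it on 2 of 6 arrays, and Cox8c on 0 of 6, and neither was tested. The labels were set against marker lists. All 9 measured medullary thymic markers were higher in the thymic cells, with a summed linear level of 317 to 339 against 2.47 to 3.07, and 8 of 10 follicular markers were higher in the thyroid cells (571 to 747 against 12.4 to 13.9), where Tshr and Pax8 were above background on no thymic array. Markers of other cells moved with the groups too. All 12 endothelial markers were higher in the thyroid samples (summed 708 to 1041 against 5.13 to 5.65), as were 4 of 6 of parathyroid and C cells, while the other 2 were higher in the thymic samples (summed 559 to 1236 in the thyroid against 94.1 to 157 in the thymic samples). All 8 of B and myeloid cells (93.0 to 101 against 0.943 to 1.63) and all 8 of T cells (1.97 to 3.82 against 0.591 to 0.714) were higher in the thymic samples. Fewer passed with quantile normalization, median centring and normexp correction, described below. These were 6, 6 and 7 of the B and myeloid markers and 5, 5 and 5 of the T cell markers. Pericyte and smooth muscle markers split, with 4 of 10 higher in the thyroid and 2 in the thymic samples. Of 3 erythroid markers tested, 1 was higher in the thyroid and 1 in the thymic samples. The summed level of the 4 erythroid markers on the array was 22.9 to 27.8 in the thyroid against 2.64 to 4.14 in the thymic samples. Of 8 fibroblast markers, 2 were higher in the thymic samples. The part of all these other cells in the differences of the respiratory chain genes was not tested. In such mixed samples, fewer cells of a type and less RNA per cell cannot be told apart.

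The respiratory chain genes lay towards the thyroid cells, by small amounts. The thymic mean was the lower for 69 of the 83 members tested (47 with quantile normalization and 81 with median centring). In the test, 37 (44.6%) were higher in the thyroid cells and 3 (3.61%) higher in the thymic cells, and 43 did not pass the test (limma, adjusted p under 0.05 over all genes). Over all 21395 genes tested, 30.5% were higher in the thyroid cells and 39.2% in the thymic cells. The 3 members higher in the thymic cells were Cox8b, Atp5f1 and Cox4nb. The differences were small. The median over the members was -0.27 (thymic minus thyroid), against 0.10 over all genes. The latter include genes not above background on all 6 arrays, whereas all 83 tested members were. Over the 17071 genes above background on all 6 arrays the median was -0.10. Of these, 6421 were higher in the thyroid cells and 5023 in the thymic cells, against 39 and 3 members with this filter. Of the 37 thyroid calls, 34 were under 2-fold. Only Cox6a2, Ndufb8, Ndufa1 and, in the other direction, Cox8b passed the test at 2-fold or more. These were 4 of 83 members, against 43.1% of all genes. The 3 thymic arrays lay wholly below the 3 thyroid arrays for 50 members (34.3% of all genes) and wholly above them for 5 (42.1% of all genes).

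The median level of the members was 4.02, 4.03 and 4.13 in the thymic samples against 4.31, 4.59 and 4.39 in the thyroid samples. The groups did not overlap, and thyroid replicate 2 was highest. The median of all genes was lower on the thyroid arrays, so that the members' median exceeded it by 5.02, 5.03 and 5.12 in the thymic and by 5.66, 5.93 and 5.73 in the thyroid samples. The number of members that passed moved with the scaling. With quantile normalization 18 were higher in the thyroid cells and 10 in the thymic cells (37.0% and 34.1% of all genes) and the members' median was -0.03. With median centring 78 and 2 were (51.6% and 28.5% of all genes), with a median of -0.81. With normexp background correction 36 and 3 were (28.7% and 30.6% of all genes), and with scaling by probes that every array measured above background 32 and 4 (29.3% and 40.3% of all genes). The median of all genes was 0.02 to 0.14 with these last 2 settings, -0.05 with quantile normalization and -0.43 with median centring. For 35 of the 83 members the sign of the difference itself turned among these 5 scalings.

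**Figure D1:**
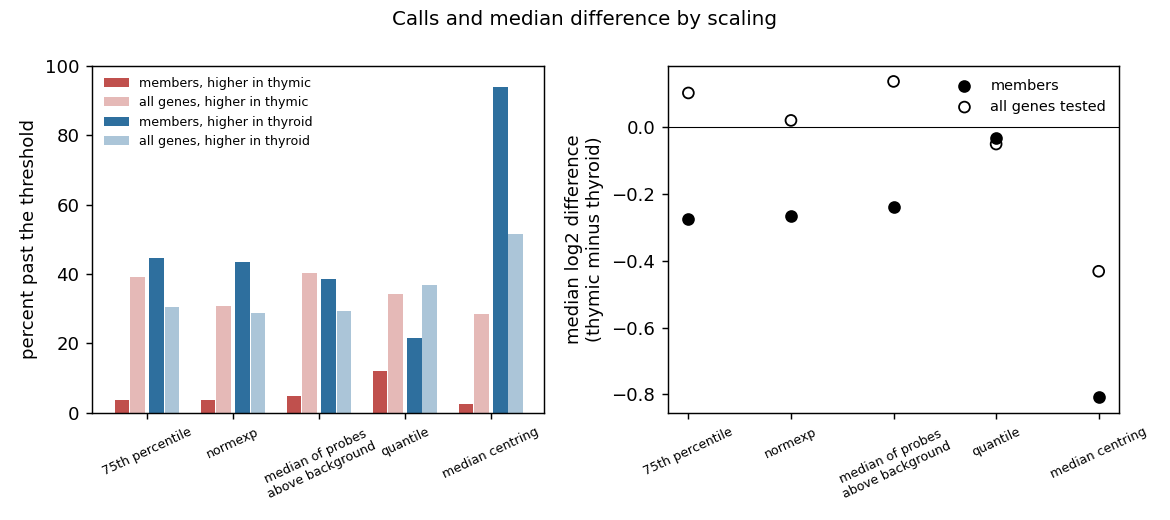
Percent of the 83 respiratory chain members and of all genes tested that passed the test in each direction (left) and the median difference over the members and over all genes (right; log2, thymic minus thyroid), for each of the 5 scalings. Thyroid calls ran from 18 to 78 members over the scalings, and the members' median from -0.81 to -0.03.

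Slide 1 carried all thymic samples and the thyroid sample 1, and slide 2 the remaining thyroid samples. A fit with the slide as a block therefore takes its group difference from slide 1, with thyroid sample 1 as the only thyroid sample. Slide 2 adds only to its estimate of spread. The members' median in that fit, -0.13, was the same as on slide 1 alone. With the slide as a block, 15 members were higher in the thyroid cells and 3 in the thymic cells (26.0% and 36.1% of all genes). On slide 1 alone, which leaves 1 thyroid sample whose spread is taken to equal that of the thymic ones, 22 and 5 were (28.5% and 39.4% of all genes), and the members' median was -0.13. Without thymic replicate 1, 19 of the 83 members were higher in the thyroid cells, against 26.3% of all genes. Without thymic replicate 2 or 3 these were 26 and 28 members (27.3% and 26.3% of all genes), and without thyroid replicate 1, 2 or 3 they were 48, 30 and 31 (29.6%, 28.8% and 29.9%). In the thymic cells 2 to 4 members were higher in these fits, against 35.9%, 36.3% and 35.7% of all genes without thymic replicate 1, 2 or 3 and 38.1%, 38.4% and 39.3% without thyroid replicate 1, 2 or 3.

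A smaller group held under all 5 scalings. These were 15 subunits higher in the thyroid cells, namely Cox6a2, Ndufb8, Ndufa1, Ndufv1, Ndufs8, Ndufa10, Ndufa13, Ndufb11, Ndufa8, Sdha, Atp5d, Cox7a1, Sdhc, Sdhb and Uqcr, plus Cox8b and Cox4nb, higher in the thymic cells. Of all genes, 25.4% passed in this way towards the thyroid cells and 23.4% towards the thymic cells, so that 15 and 2 of 83 members are smaller shares than those of all genes. The other 22 thyroid calls were lost with at least 1 scaling. Of the 17 that held, 15 passed in each of 19 fits, among them those of slide 1 and those with a replicate left out. Relative to the median of the members themselves, a scaling that is not among the 19, 10 of the 17 passed. Cox7a1 and Uqcr missed the threshold in at least 1 of the 19 fits, with adjusted p-values (limma) of up to 0.204 and 0.0943. By complex, the 15 were 8 of the 36 subunits tested in complex I, 3 of 4 in complex II and 1 of 8 in complex III. In complex IV and the ATP synthase they were 2 of 15 and 1 of 15. These counts stand beside the 25.4% of all genes.

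**Figure D2:**
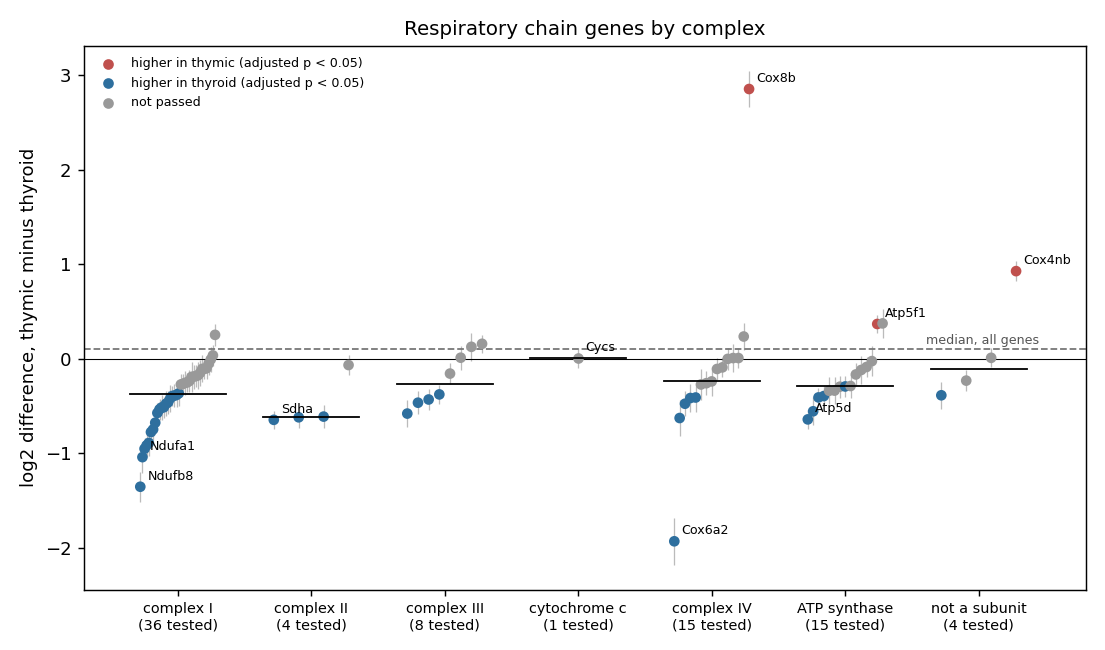
Difference of each tested member (log2, thymic minus thyroid; error bars, SE; 3 arrays per group), arranged by complex and sorted within it, with the colour giving the test's call, a black line at the median of each complex and a dashed line at the median of all genes (0.10). Most points lie just below 0, with Cox8b at 2.85 and Cox6a2 at -1.93.

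Counts by complex under the main scaling are to be read against the shares of all genes. These were 30.5% higher in the thyroid cells and 39.2% higher in the thymic cells. For quantile normalization the shares were 37.0% and 34.1%, for median centring 51.6% and 28.5%, and with the slide as a block 26.0% and 36.1%. Complex I, the NADH dehydrogenase, had all 36 of its member subunits tested, as assigned by the start of the name. Of these, 19 were higher in the thyroid cells and 0 in the thymic cells, with a median of -0.38; with quantile normalization 8 and 2 were, and with median centring 36 and 0. With the slide as a block 10 were higher in the thyroid cells. Of its 29 accessory subunits, which surround the catalytic core, 15 were higher in the thyroid cells.

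Ndufv1, the core subunit that binds NADH and the flavin, had levels of 3.24, 3.35 and 3.22 in the thymic samples against 4.18, 4.34 and 4.16 in the thyroid samples. The thyroid arrays were higher by 0.95 ± 0.11 (SE; 1.94-fold; adjusted p = 0.000235, limma). Ndufs8, an iron-sulfur subunit, had levels of 0.67, 1.04 and 0.75 in the thymic samples against 1.73, 1.77 and 1.73 in the thyroid samples, a difference of 0.92 ± 0.13 (1.89-fold; adjusted p = 0.000668, limma). In both genes the 3 thyroid values were close together and all lay above the thymic values. Ndufs3, another core subunit, had levels of 3.43, 3.64 and 3.74 in the thymic samples against 3.95, 4.09 and 4.21 in the thyroid samples. It passed (adjusted p = 0.0152, limma) at 1.39-fold, but did not with quantile normalization. The iron-sulfur subunits Ndufs1 and Ndufs7 and the subunit Ndufv2 did not pass. Ndufs1 had levels of 3.04, 3.05 and 3.09 in the thymic samples against 3.19, 3.41 and 3.15 in the thyroid samples. Ndufs7 had 4.10, 4.14 and 4.201 in the thymic samples against 4.26, 4.37 and 4.14 in the thyroid samples, and Ndufv2 1.78, 1.89 and 1.77 in the thymic samples against 1.80, 2.12 and 2.11 in the thyroid samples. The Ndufs7 and Ndufv2 groups overlapped, the Ndufs1 groups lay apart by less than the test could call, and the differences of all 3 turned sign with the scaling.

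Among the accessory subunits, Ndufb8, part of the membrane arm, differed most. Its brighter probe had levels of 4.02, 4.03 and 4.12 in the thymic samples against 5.13, 5.68 and 5.44 in the thyroid samples, a thyroid excess of 1.36 ± 0.16 (2.56-fold; adjusted p = 0.000259, limma). Its dimmer probe had levels of -2.60, -2.54 and -2.35 in the thymic samples against -0.06, -0.22 and -0.12 in the thyroid samples, which is 5.16-fold higher in the thyroid cells. The probes thus moved the same way by unequal amounts. Ndufa1, a small X-linked subunit of the membrane arm, had levels of 5.17, 5.07 and 5.35 in the thymic samples against 6.01, 6.52 and 6.20 in the thyroid samples and a thyroid excess of 1.04 ± 0.16 (2.06-fold; adjusted p = 0.00114, limma). Its other probe differed 2.08-fold in the same direction. For both genes every thyroid array lay above every thymic array. Ndufa10 (1.86-fold), Ndufa13, also known as GRIM-19 (1.71-fold), the X-linked Ndufb11 (1.68-fold) and Ndufa8 (1.60-fold) were likewise higher in the thyroid cells under the 5 scalings. Ndufa6, Ndufb4, Ndufb6, Ndufs6, Ndufc1, Ndufa3, Ndufa7, Ndufa4 and Ndufb2 were higher in the thyroid cells by 0.37 to 0.58 under the main scaling. Ndufa4 is now assigned to complex IV, but by its name it is counted here with complex I and not with complex IV. It had levels of 4.08, 4.08 and 4.17 in the thymic samples against 4.32, 4.69 and 4.47 in the thyroid samples. The remaining 14 accessory subunits did not pass, from -0.27 for Ndufs4 to 0.25 for Ndufc2, the latter with its 3 thymic arrays above the thyroid arrays. Ndufs5, Ndufb9, Ndufb10, Ndufa9, Ndufa5, Ndufa12, Ndufb3, Ndufa2, Ndufb7, Ndufa11, Ndufb5 and Ndufab1, which is also the mitochondrial acyl carrier protein, lay between.

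**Figure D3:**
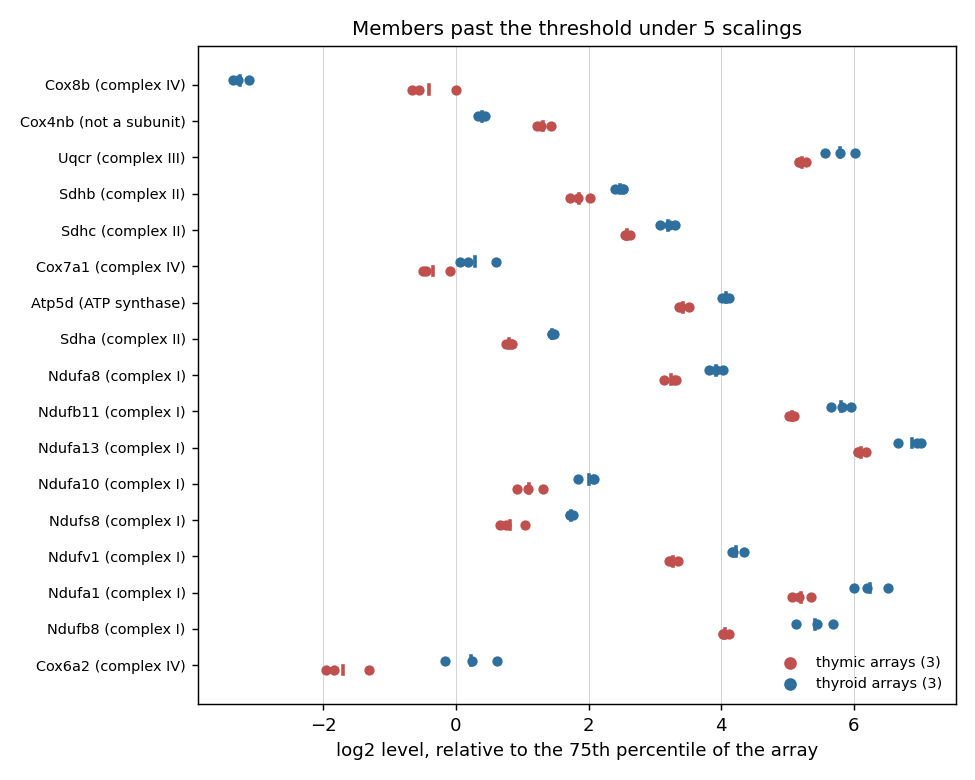
Level of the 17 members that passed under all 5 scalings on each of the 6 arrays (log2 of the processed signal minus the 75th percentile of the array; points are arrays, ticks are group means). Cox8b and Cox4nb were higher on all 3 thymic arrays and the other 15 on all 3 thyroid arrays; positions of different genes are not comparable, since each has its own probe.

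Complex II, succinate dehydrogenase, links the citric acid cycle to the chain and is encoded wholly in the nucleus. Of its 4 subunits, 3 were higher in the thyroid cells under all 5 scalings, and with the slide as a block. Sdha, the flavoprotein that oxidises succinate, had levels of 0.84, 0.76 and 0.82 in the thymic samples against 1.44, 1.44 and 1.48 in the thyroid samples, a thyroid excess of 0.65 ± 0.10 (1.57-fold; adjusted p = 0.000866, limma). Sdhb, the iron-sulfur subunit, had levels of 1.84, 2.02 and 1.72 in the thymic samples against 2.39, 2.52 and 2.51 in the thyroid samples, and Sdhc, a membrane anchor, had 2.55, 2.62 and 2.56 in the thymic samples against 3.08, 3.22 and 3.30 in the thyroid samples. Their thyroid excess was 0.61 ± 0.12 and 0.62 ± 0.11 (adjusted p = 0.00327 and 0.00193, limma), so these 3 subunits differed by nearly the same amount. Sdhd, the other anchor, had levels of 3.73, 3.71 and 3.90 in the thymic samples against 3.77, 3.86 and 3.93 in the thyroid samples. Its groups overlapped, its difference of -0.07 did not pass, and its sign turned with the scaling.

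Complex III, which passes electrons from ubiquinol to cytochrome c, had 4 of 8 members higher in the thyroid cells and 0 in the thymic cells, with a median of -0.27; with quantile normalization 1 and 2 were, and with the slide as a block 0 and 0. Uqcr (now Uqcr11), a small accessory subunit, had levels of 5.18, 5.17 and 5.28 in the thymic samples against 5.56, 6.02 and 5.80 in the thyroid samples and a thyroid excess of 0.58 ± 0.14 (1.50-fold; adjusted p = 0.00913, limma). Uqcrb, which lies near the ubiquinone site, had levels of 3.95, 3.98 and 4.13 in the thymic samples against 4.42, 4.64 and 4.39 in the thyroid samples. Both genes had all thyroid arrays above all thymic arrays. Cyc1, the cytochrome c1 that hands electrons on, had levels of 3.28, 3.44 and 3.25 in the thymic samples against 3.69, 3.72 and 3.86 in the thyroid samples. Uqcrc1, a core protein, had levels of 3.68, 3.79 and 3.67 in the thymic samples against 4.08, 4.16 and 4.04 in the thyroid samples, and its partner Uqcrc2 4.34, 4.34 and 4.36 in the thymic samples against 4.40, 4.65 and 4.47 in the thyroid samples. Uqcrb, Cyc1 and Uqcrc1 passed at 1.30-fold to 1.38-fold, and Uqcrc2 did not (adjusted p = 0.234, limma). Uqcrfs1, the Rieske iron-sulfur protein, pointed the other way, with 3.78, 3.75 and 3.77 in the thymic samples against 3.54, 3.65 and 3.65 in the thyroid samples, and did not pass; with median centring its difference was -0.38. Uqcrh and Uqcrq did not pass either.

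Cycs, the mobile carrier between complexes III and IV, gave values that depended on the probe and on the scaling. Its brightest probe had levels of 3.77, 3.75 and 3.91 in the thymic samples against 3.76, 3.87 and 3.78 in the thyroid samples and a difference of 0.0046 (adjusted p = 0.971, limma). With quantile normalization this probe was higher in the thymic cells, at 0.36 (adjusted p = 0.0157, limma). With median centring it was higher in the thyroid cells, at -0.53 (adjusted p = 0.00244, limma). The 2 dimmer probes, which overlap each other further along the transcript, were higher in the thyroid cells, at 1.41, 1.34 and 1.47 in the thymic samples against 2.01, 2.14 and 1.92 in the thyroid samples and 2.19, 2.11 and 2.04 in the thymic samples against 2.67, 3.00 and 2.75 in the thyroid samples. These correspond to 1.53-fold and 1.62-fold (adjusted p = 0.00244 and 0.00245, limma over probes).

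Complex IV, cytochrome c oxidase, held the largest differences in both directions, and both belonged to muscle forms. Of 15 members tested, 5 were higher in the thyroid cells and 1 in the thymic cells, with a median of -0.24; the 33.3% higher in the thyroid cells is near the 30.5% of all genes. With quantile normalization 4 and 2 were, and with the slide as a block 1 and 1. Cox8b, the muscle and brown fat form of subunit 8, had levels of -0.66, -0.56 and 0.01 in the thymic samples against -3.13, -3.36 and -3.28 in the thyroid samples. All thymic arrays lay above all thyroid arrays, by 2.85 ± 0.19 (7.22-fold; adjusted p = 1.98e-05, limma). With normexp background correction the difference was 2.04, or 4.10-fold. Cox6a2, the muscle form of subunit 6a, moved in the opposite direction, with levels of -1.83, -1.96 and -1.31 in the thymic samples against -0.16, 0.62 and 0.24 in the thyroid samples. It was higher in the thyroid cells by 1.93 ± 0.25 (3.82-fold; adjusted p = 0.000460, limma). Cox7a1, the muscle form of subunit 7a, was also higher in the thyroid cells, with levels of -0.46, -0.49 and -0.09 in the thymic samples against 0.06, 0.60 and 0.18 in the thyroid samples (1.55-fold; adjusted p = 0.0210, limma), although it did not pass in every fit. Of 10 skeletal muscle marker genes, 9 were higher in the thymic cells, with a summed linear level of 15.0 to 15.5 against 0.727 to 0.959. So were 6 of 8 brown fat markers, although their summed level overlapped, at 71.2 to 78.2 against 71.0 to 89.8. With quantile normalization, median centring and normexp correction, 8, 8 and 8 muscle and 5, 6 and 4 brown fat markers were. In these fits 1, 2 and 0 brown fat markers were higher in the thyroid cells. Cox8b thus lay in the direction of these lists and Cox6a2 and Cox7a1 against that of the muscle list, and the part of such cells in these values was not tested.

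The common forms of these subunits had smaller differences. Cox8a had levels of 5.98, 5.93 and 6.04 in the thymic samples against 5.95, 6.25 and 6.09 in the thyroid samples and Cox6a1 7.23, 7.21 and 7.32 in the thymic samples against 7.42, 7.93 and 7.66 in the thyroid samples. Cox6a1 was 1.34-fold higher in the thyroid cells, while the Cox8a groups overlapped. Cox7a2, the common form of subunit 7a, had levels of 5.35, 5.26 and 5.41 in the thymic samples against 5.61, 5.99 and 5.84 in the thyroid samples and was 1.39-fold higher in the thyroid cells, and the related Cox7a2l, which is known for joining complexes into supercomplexes, had 3.33, 3.27 and 3.37 in the thymic samples against 3.68, 3.71 and 3.37 in the thyroid samples and did not pass. Cox6b1 had levels of 2.41, 2.47 and 2.55 in the thymic samples against 2.33, 2.61 and 2.50 in the thyroid samples, with a difference near 0. Its testis form Cox6b2 had -1.11, -1.12 and -0.83 in the thymic samples against -0.84, -0.57 and -0.41 in the thyroid samples and passed narrowly (adjusted p = 0.0483, limma), although its groups overlapped. Neither Cox6b2 nor Cox6a1 passed when scaled by probes above background on each array. All 6 tested testis markers were higher in the thymic cells, the direction opposite to Cox6b2 (summed 1.41 to 1.98 against 0.201 to 0.321; their part was not tested). The subunits Cox4i1, Cox5a and Cox5b, which surround the catalytic core, did not pass. Cox4i1 had levels of 5.80, 5.83 and 5.96 in the thymic samples against 5.96, 6.01 and 5.90 in the thyroid samples. Cox5a had 5.57, 5.54 and 5.72 in the thymic samples against 5.37, 5.81 and 5.65 in the thyroid samples, and Cox5b 5.37, 5.38 and 5.46 in the thymic samples against 5.29, 5.43 and 5.46 in the thyroid samples. The groups overlapped in these 3 genes, and their differences turned sign with the scaling. Cox7b had levels of 4.88, 4.77 and 4.96 in the thymic samples against 4.83, 5.40 and 5.20 in the thyroid samples and did not pass, nor did Cox6c and Cox7c. The untested Cox4i2 and Cox8c have no fold.

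Ratios of related subunits within an array do not depend on a scaling that shifts all probes of the array by the same amount. The ratio of different probes has no absolute meaning, but its change between groups has. For 8 pairs the ratios were compared with an exact two-sided permutation test, which with 3 against 3 arrays cannot give a p below 0.1 (0.16 after adjustment over the pairs). The log2 ratio of Cox8a to Cox8b was 6.64, 6.49 and 6.04 in the thymic samples against 9.08, 9.61 and 9.37 in the thyroid samples, with means of 6.39 ± 0.31 against 9.35 ± 0.27 (SD, n = 3), or 7.79-fold (exact p = 0.1). With normexp correction the difference was -2.17 in place of -2.96. The log2 ratio of Cox6a1 to Cox6a2 was 9.06, 9.17 and 8.63 against 7.58, 7.32 and 7.42, with means of 8.95 ± 0.29 and 7.44 ± 0.13 (SD, n = 3), or 2.86-fold (exact p = 0.1). Relative to its common form, Cox8b was thus higher on every thymic array and Cox6a2 on every thyroid array, at the smallest p this design allows. On slide 1 alone the differences were -2.69 and 1.37. Smaller shifts without overlap were seen for Cox6b1 over Cox6b2 (0.41), Atp5g1 over Atp5g2 (-0.39) and Atp5g1 over Atp5g3 (-0.47), each with an exact p of 0.1. The arrays overlapped for Cox7a1 over Cox7a2 (-0.15, exact p = 0.3), Cox7a2 over Cox7a2l (-0.22, exact p = 0.4) and Atp5g2 over Atp5g3 (-0.08, exact p = 0.3).

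**Figure D4:**
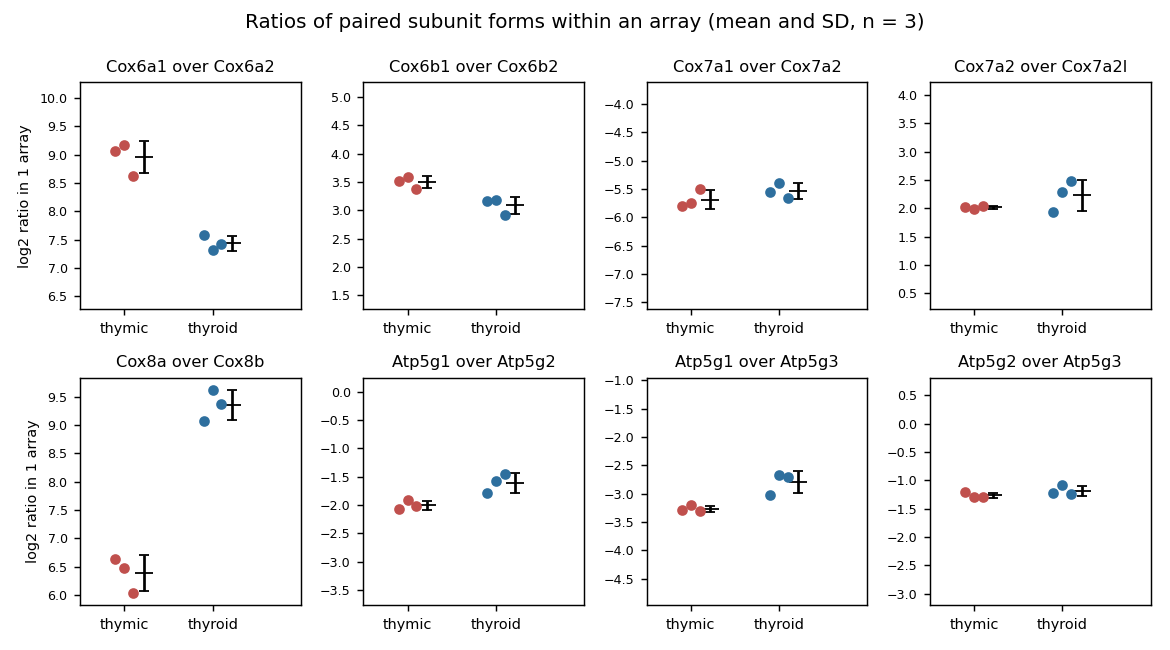
Log2 ratio of related subunits on each array for the 8 pairs (points are arrays; mean and SD, n = 3 per group; the vertical axes differ in position). The Cox8a over Cox8b ratio is lower on all thymic arrays and the Cox6a1 over Cox6a2 ratio is higher on them.

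The ATP synthase, complex V, had 5 of 15 members higher in the thyroid cells and 1 in the thymic cells, with a median of -0.29. The 33.3% higher in the thyroid cells is again near the 30.5% of all genes, and with quantile normalization 1 and 2 were, and with the slide as a block 1 and 1 (median -0.11). Atp5d, the delta subunit of the central stalk, had levels of 3.39, 3.51 and 3.37 in the thymic samples against 4.01, 4.12 and 4.07 in the thyroid samples and a thyroid excess of 0.64 ± 0.10 (1.56-fold; adjusted p = 0.00128, limma). It was the single member of this complex that passed under all 5 scalings. The values of the catalytic head depended on the probe. With the brightest probe, Atp5a1 (alpha) had levels of 5.55, 5.54 and 5.51 in the thymic samples against 5.65, 5.91 and 5.92 in the thyroid samples, and Atp5b (beta) 6.28, 6.36 and 6.32 in the thymic samples against 6.43, 6.89 and 6.66 in the thyroid samples. Both lay below the thyroid arrays on every thymic array but did not pass (adjusted p = 0.0581 and 0.0681, limma). A dimmer probe passed for each, at 1.41-fold for Atp5a1 and 1.54-fold for Atp5b towards the thyroid cells (adjusted p = 0.00633 and 0.00484, limma over probes). Atp5c1 (gamma), in the central stalk, had levels of 5.11, 5.15 and 5.06 in the thymic samples against 5.47, 5.63 and 5.42 in the thyroid samples and passed at 1.32-fold.

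The 3 genes Atp5g1, Atp5g2 and Atp5g3 encode the same mature c subunit of the rotor. Atp5g1 had levels of 2.47, 2.62 and 2.55 in the thymic samples against 2.83, 3.32 and 3.15 in the thyroid samples and was 1.47-fold higher in the thyroid cells (adjusted p = 0.0139, limma). Atp5g2 had 4.55, 4.54 and 4.56 in the thymic samples against 4.63, 4.90 and 4.62 in the thyroid samples, and Atp5g3 5.76, 5.82 and 5.85 in the thymic samples against 5.85, 5.99 and 5.86 in the thyroid samples. Neither of these passed, although in both the thymic arrays lay below the thyroid arrays, and their sign turned with the scaling. Atp5o, which joins the peripheral stalk to the head, and Atp5h, also of that stalk, passed at 1.33-fold and 1.23-fold. Atp5f1, the b subunit of the same stalk, was the exception, with 4.87, 4.87 and 4.96 in the thymic samples against 4.51, 4.59 and 4.50 in the thyroid samples, higher in the thymic cells by 0.37 ± 0.10 (adjusted p = 0.0144, limma); with median centring the difference was -0.17. Atp5j, Atp5j2, Atp5l, Atp5k and Atp5e did not pass, from -0.34 for Atp5j to 0.37 for Atp5e.

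Among the 4 names that are not subunits, Cox4nb had a thymic excess of 1.90-fold (adjusted p = 0.000274, limma), and passed under the 5 scalings, although its other probe did not pass (-0.06); Atp5s was 1.31-fold higher in the thyroid cells. Ndufa12l and Ndufaf1 did not pass. Without these 4, 36 of 79 subunits were higher in the thyroid cells and 2 in the thymic cells, with a median of -0.29.

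Several tested probes were available for 25 members. In 0 of them did probes pass in opposite directions, and in 12 at least 1 probe passed while another did not. Atp5j2 is such a case: its brighter probe differed by -0.29 and did not pass, while its dimmer probe had a thymic excess of 1.80-fold (adjusted p = 0.00191, limma over probes). Ndufb2 passed with both probes, at 1.29-fold for the brighter and 2.52-fold for the dimmer. For Ndufab1 the brightest probe differed by 0.03, and a dimmer one was 1.87-fold higher in the thyroid cells (adjusted p = 0.00146, limma over probes).

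**Figure D5:**
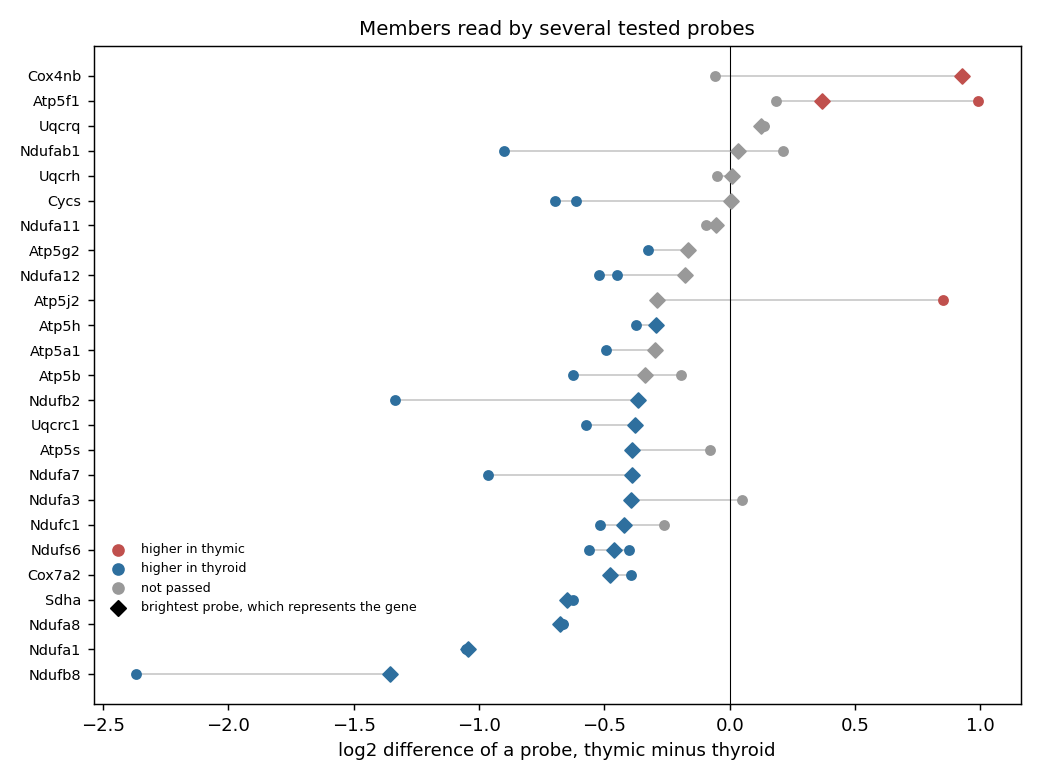
Difference of each tested probe (log2, thymic minus thyroid) for the 25 members with several tested probes, with the colour giving the call and a diamond for the probe that stands for the gene. The probes of Atp5j2 and Ndufab1 lie on both sides of 0, and both Ndufb8 and both Ndufa1 probes lie below it.

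To set the members against each other, each array was also centred on the median of the members, a setting chosen after seeing the data. Then 8 members were higher in the thyroid cells (17.8% of all genes), Cox6a2 and the complex I subunits Ndufb8, Ndufa1, Ndufv1, Ndufs8, Ndufa10, Ndufa13 and Ndufb11. In the thymic cells 16 were higher (50.5% of all genes). These were Cox8b, Cox7c, Cox5a, Cox5b and Cox6b1 of complex IV, Atp5e and Atp5f1 of the ATP synthase, Uqcrfs1, Uqcrq and Uqcrh of complex III, Ndufc2, Ndufab1 and Ndufb5 of complex I, Cycs, and Ndufaf1 and Cox4nb. The thyroid calls were thus 7 of the 36 complex I subunits and Cox6a2, while 3 complex I subunits passed the other way and the median of complex I was -0.01. Of those that passed under the 5 scalings, Sdha, Sdhb, Sdhc, Atp5d, Ndufa8, Cox7a1 and Uqcr did not pass with this one. Cox8b stood farthest towards the thymic cells, at 3.22, with Cox4nb next at 1.30.

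The mitochondrially encoded subunits could be followed only in part, since 3 of 13 were found on the array under the names ND4L, CYTB and COX2. ND4L, of complex I, was 1.52-fold higher in the thyroid cells (adjusted p = 0.0119, limma), CYTB, of complex III, differed by -0.35 (adjusted p = 0.0611, limma) and COX2, of complex IV, by -0.01. The scanner files place the COX2 probe on chromosome 1 and not on mitochondrial DNA. Its match to the complex IV gene thus rests on the name alone.

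Lists of other mitochondrial and energy genes were set beside the subunits. Their counts under the main scaling are to be read against the 30.5% and 39.2% of all genes given above. Those with quantile normalization are to be read against 37.0% and 34.1%. Of 37 assembly factors of the respiratory chain, 12 were higher in the thyroid cells and 7 in the thymic cells (median -0.15). Uqcc3, for complex III, and Sco1, a copper chaperone for complex IV, were 1.67-fold and 1.65-fold higher in the thyroid group. Acad9, which assists complex I assembly, and Sdhaf1, which assists complex II, were 5.11-fold and 2.68-fold higher in the thymic cells. Of 76 genes of the mitochondrial ribosome, 31 were higher in the thyroid cells and 9 in the thymic cells (median -0.23); with quantile normalization 19 and 17 were. Mrps6 (4.94-fold) and Mrps24 (2.59-fold) led towards the thyroid cells, and Mrpl38 (4.73-fold) and Mrps5 (1.99-fold) towards the thymic cells.

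Among genes that feed the chain, thyroid calls outnumbered thymic calls in each list. Of 19 genes of the citric acid cycle, 11 were higher there and 1, the pyruvate carboxylase gene Pcx (1.62-fold), in the thymic cells (median -0.41). Fh1, fumarase, was 2.33-fold and Idh2, a mitochondrial isocitrate dehydrogenase, 2.07-fold higher in the thyroid group. Of 18 genes of fatty acid oxidation, 11 were higher in the thyroid cells and 3 in the thymic cells (median -0.66). Acaa2, a mitochondrial thiolase, was 11.8-fold and Decr1, a reductase for unsaturated fatty acids, 2.60-fold higher in the thyroid group. Cpt2, a carnitine palmitoyltransferase, was 2.50-fold and Hadh 1.44-fold higher in the thymic cells. Glycolysis gave 14 of 21 genes higher in the thyroid cells and 5 in the thymic cells (median -0.36), but 6 and 5 with quantile normalization. The lactate transporter gene Slc16a1 (3.43-fold) and Pdk1, a pyruvate dehydrogenase kinase (3.36-fold), were higher in the thyroid cells. Hk2 (7.31-fold) and Eno2 (5.66-fold) were higher in the thymic cells. Of 15 carriers and uncoupling proteins, 8 were higher in the thyroid cells, among them Ucp2 (1.84-fold) and the ADP/ATP carrier gene Slc25a5 (1.75-fold), and 3 in the thymic cells, among them Ucp1, the uncoupling protein of brown fat (4.83-fold), and Slc25a13 (3.93-fold); with quantile normalization 3 and 4 were.

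The known regulators did not share a direction. Of 27 genes, 9 were higher in the thyroid cells and 8 in the thymic cells (median -0.14). Ppargc1a, which encodes PGC-1alpha, was 2.54-fold higher in the thyroid cells (adjusted p = 0.00402, limma), and for its relative Ppargc1b the thymic cells were 2.50-fold higher (adjusted p = 0.000343, limma). Gabpa was 2.12-fold higher in the thyroid cells. Nrf1 differed by -0.31, Esrra by -0.14 and Tfam, which packages and transcribes mitochondrial DNA, by 0.08, and none of these 3 passed (adjusted p = 0.0731, 0.275 and 0.757, limma); Nrf1 passed with quantile normalization, at -0.58. Sirt1 (3.25-fold) and Esrrg (2.86-fold) were the largest differences towards the thymic cells in this list.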

How the data were processed

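The members, the pathway lists and the marker lists were chosen with earlier results of these data known. Per the labels' protocols, Trizol was used for the RNA and Cy3 as the label. Per their headers, the deposited scanner files come from Agilent Feature Extraction version 10.5.1.1 and hold each spot's intensity as a background-subtracted processed signal, with probe positions on the mm8 build. The authors' deposited value table holds a linear ratio, which set against the scanner values equals the processed signal divided by the array's median. No transcript annotation of mm8 was used, so exon or UTR positions are not stated.

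Levels were log2 of the processed signal minus the 75th percentile of all non-control, non-outlier spots of the array. Probes entered the test where the scanner software marked them as well above background throughout at least 1 group. A gene was read from its tested probe with the highest mean. Members kept the name in the file; other probes took current symbols from RefSeq (24375 matched by accession, 6301 by symbol, 2426 by synonym), and 8072 kept the file's name. The two-sided comparison used lmFit and eBayes of limma 3.58.1 (R 4.3.3) without covariates, with Benjamini-Hochberg adjustment over 21395 genes and a threshold of 0.05. Within a complex, the members named with values per array were the catalytic core, the related tissue forms and the 2 largest differences per direction past the threshold; in each other list, up to 2 genes per direction and 6 regulators were named. The values of 1 member are not reported here, although the counts include it. The ND4L, CYTB and COX2 names were matched after seeing the files.

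The alternatives were normexp correction (offset 50), quantile normalization, median centring, scaling by the probes above background on all arrays, the values of the deposited table, dropping the filter or asking for all 6 arrays, averaging a gene's probes by their median, the slide as a block or slide 1 by itself, a block for replicate number, a trended variance, leaving out each replicate and, added after seeing the data, scaling by the members' median. The number of arrays, 3 per group, limits precision. The fit was also run on simulated arrays with independent noise between arrays. These held no slide effect and no shift in scaling, so the run does not bear on either. Plots used matplotlib 3.10.9 (Python 3.11.15).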

Additional observations from a re-analysis of the deposited data

How the results depend on the processing

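Against 37 members higher in the thyroid cells, 3 in the thymic cells and a median of -0.27 under the reported settings, quantile normalization gave 18, 10 and -0.032, and median centring 78, 2 and -0.81. The deposited value table, which is median-centred by its construction, gave 77, 2 and -0.80. With the slide as a block 15 were higher in the thyroid cells, and on slide 1 alone 22 and 5. Leaving out a replicate gave 19 to 48 thyroid calls, 2 to 4 thymic calls and medians of -0.36 to -0.23; the 19 came without thymic replicate 1 and the 48 without thyroid replicate 1. Of all genes, 11042 were higher in the thyroid cells with median centring and 10967 with the deposited table, against 6535. With the filter on all 6 arrays, 17071 genes were tested, against 21395. Of these, 5023 were higher in the thymic cells, against 8397, while 6421 were higher in the thyroid cells, against 6535. The other counts and medians stayed within 1.5 times or within the spread between replicates. The cause of these changes was not tested.

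The differences of 5 named members turned sign with median centring and the deposited table: Atp5f1 (-0.17 and -0.16), Cox5a (-0.53 and -0.52), Cox5b (-0.53 and -0.52), Cycs (-0.53 and -0.52) and Uqcrfs1 (-0.38 and -0.37). With the median over a gene's probes Cycs was -0.70, and relative to the members' own median Cox6b1 was 0.37. Where neither fit made a call, signs turned in 47 further values of named members.

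The replicate numbers did not pair the samples: the deviations of same-numbered samples correlated at 0.007, -0.07 and -0.05. With a replicate block 31 members were higher in the thyroid cells and 2 in the thymic cells, and the median was -0.27.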
